A study of Homo sapiens with 8 samples.

Results

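Mature microRNAs (miRNAs) known as markers of smooth muscle, fibroblasts and endothelium, 9 in all, were followed in a cultured kidney cancer cell line: hsa-miR-143-3p, hsa-miR-143-5p, hsa-miR-145-5p, hsa-miR-145-3p, hsa-miR-126-3p, hsa-miR-126-5p, hsa-miR-199a-5p, hsa-miR-199a-3p and hsa-miR-214-3p. They make up 9 of the 3112 rows of the count table, which holds 1482 known and 1630 predicted miRNAs. All 9 were present. They were chosen by their high levels in NC replicate 4 and circSOD2-sh replicate 2 against the other libraries, so those levels are given below as a description with no test.

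Small RNA was sequenced from 786O, a long-used line derived from a human clear cell kidney carcinoma, in 4 libraries labelled as negative control (NC) and 4 labelled circSOD2-sh. CircSOD2 is a circular RNA from the SOD2 gene, and circSOD2-sh stands for a short hairpin RNA against it. The labels give transfection of the circSOD2-sh or the control plasmid with a Lipofectamine reagent and RNA extraction 48 hours later, whereas the methods of the study describe lentiviral delivery with puromycin selection for its silenced lines. All 8 libraries came from the same parental line, and neither which hairpin was used nor a circSOD2 level is given by the count table, so the knockdown itself was not checked here. No source states that the replicates were separate cultures, so p-values measure the spread between these libraries only, which may be technical.

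The miR-143 and miR-145 hairpins lie side by side in one long noncoding RNA gene and are abundant in smooth muscle and fibroblasts, where they are known for keeping smooth muscle cells in their contractile state. MiR-126 is made from an intron of EGFL7, an endothelial gene, and is known for its part in the integrity of blood vessels through growth factor signalling. MiR-199a and miR-214 are processed from a shared antisense transcript in the DNM3 locus and are typical of mesenchymal cells. A pure epithelial tumour line grown without stroma is usually low in most of these miRNAs.

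The mature sequences are shown because they tell which rows can and cannot be separated by sequence. They were taken from RefSeq on GRCh38.p14, which held all 9, and run 5′ to 3′. Capitals mark the seed, bases 2 to 8, which pairs with target transcripts.
hsa-miR-143-3p: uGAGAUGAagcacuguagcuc
hsa-miR-143-5p: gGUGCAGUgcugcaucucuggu
hsa-miR-145-5p: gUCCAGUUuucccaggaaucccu
hsa-miR-145-3p: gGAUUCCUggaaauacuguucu
hsa-miR-126-3p: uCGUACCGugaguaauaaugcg
hsa-miR-126-5p: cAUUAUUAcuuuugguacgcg
hsa-miR-199a-5p: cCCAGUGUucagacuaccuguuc
hsa-miR-199a-3p: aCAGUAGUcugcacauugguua
hsa-miR-214-3p: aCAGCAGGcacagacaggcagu

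The 9 sequences were 21 to 23 bases long and carried 9 different seeds, so no pair of them forms a seed family. The mature sequence of hsa-miR-199b-3p is identical to that of hsa-miR-199a-3p, and both rows held the same count in every library. Reads of hsa-miR-199a-3p can therefore not be assigned to MIR199A1, MIR199A2 or MIR199B.

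The hairpins were placed on GRCh38 with the GENCODE annotation. MIR143 lies at chr5:149428918-149429023 on the plus strand in an exon of CARMN, and MIR145 lies at chr5:149430646-149430733 in an intron of CARMN, with 1622 bases between them. MIR126 lies at chr9:136670602-136670686 on the plus strand in an intron of EGFL7. MIR199A2, at chr1:172144535-172144644, and MIR214, at chr1:172138798-172138907, both lie on the minus strand in exons of DNM3OS and opposite an intron of DNM3, with 5627 bases between them. The second miR-199a hairpin, MIR199A1, lies at chr19:10817426-10817496 opposite an intron of DNM2, and MIR199B lies at chr9:128244721-128244830 opposite an intron of DNM1. The members thus come from at least 3 separate loci, and arms of 1 hairpin share a precursor.

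Total counts were 6386872 to 9245044 in the NC libraries and 3743860 to 4208276 in the circSOD2-sh libraries, of which predicted miRNAs took 58.1% to 63.8% and 3.54% to 4.93%, respectively. Levels are therefore given as normalized CPM, counts scaled to a common library size that was rescaled by the trimmed mean of M-values (TMM). Here 3 counts, the most that a count of 0 allows, correspond to 0.46 to 0.674 normalized CPM in the NC libraries. Among known miRNAs, NC replicate 4 and circSOD2-sh replicate 2 stood apart: 28 of the 463 tested were over 2 times every other library of the group in each of them, against 0 to 2 in the other 6 libraries. Over all 895 tested, predicted miRNAs included, it was 28 and 33, against 10 in circSOD2-sh replicate 1, 19 in replicate 4 and 3 to 4 in the rest. By chi-square over 806 to 813 miRNAs NC replicate 1 was nearer to NC replicate 4 (28.7 per degree of freedom) than to NC replicates 2 (45.8) and 3 (86.1). CircSOD2-sh replicate 2 was at 115 to 171 from the rest of its group, whose libraries were at 17.2 to 36.6 from each other. Intervals and limits cover counting error only, since PCR reads without molecular identifiers are not independent molecules.

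MiR-143-3p, the main arm of the smooth muscle miRNA miR-143, showed the widest spread in counts. It had 46, 42, 46 and 2206 counts in NC replicates 1 to 4 and 54, 1144, 59 and 38 counts in circSOD2-sh replicates 1 to 4. In normalized CPM these were 7.06, 6.47, 7.84 and 496 in NC and 9.18, 202, 11.8 and 6.76 in circSOD2-sh. The 6 other libraries lay within a narrow band, and NC replicate 4 and circSOD2-sh replicate 2 lay far above it. The ratio to the median of the other 3 libraries of the group was 70.3 for NC replicate 4 and 22.0 for circSOD2-sh replicate 2. The passenger arm hsa-miR-143-5p had 0, 1, 1 and 7 counts in NC and 0, 3, 0 and 0 counts in circSOD2-sh. Its largest counts fell in the same libraries, but they were close to the limit of detection: the ratio in NC replicate 4 was 14.9 with an exact 95% interval of 2.83 to 147 over the other NC libraries pooled.

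Both arms of miR-145, the partner of miR-143 in smooth muscle, followed the same pattern at a lower level. MiR-145-5p had 2, 4, 3 and 184 counts in NC and 6, 96, 3 and 5 counts in circSOD2-sh. MiR-145-3p had 3, 1, 1 and 83 counts in NC and 2, 47, 5 and 2 counts in circSOD2-sh. Outside NC replicate 4 and circSOD2-sh replicate 2 neither arm passed 6 counts, so both were near the limit of detection in the 6 other libraries. Against the other 3 libraries of the group pooled, miR-145-5p was 86.7 times as high in NC replicate 4 (exact 95% interval 44.7 to 193) and 20 times as high in circSOD2-sh replicate 2 (11.3 to 37.9). For miR-145-3p the ratios were 70.4 (29 to 223) and 15.2 (7.37 to 35.3). These intervals overlap those of miR-143-3p, 69.9 (58.7 to 83.8) and 22.1 (18.6 to 26.3), in the same 2 libraries.

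**Figure D1:**
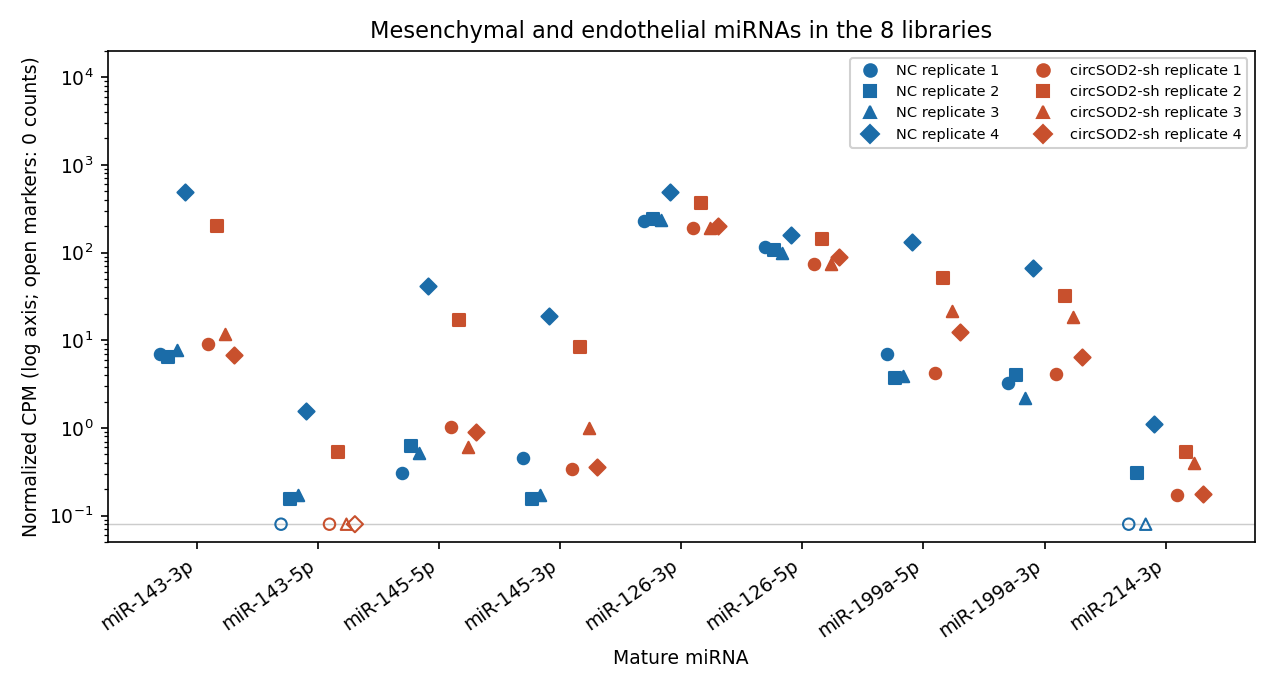
Each point is the level of 1 miRNA in 1 library in normalized CPM on a log axis, for 4 NC libraries (blue) and 4 circSOD2-sh libraries (orange). Open markers on the grey line are libraries with 0 counts. NC replicate 4 (blue diamond) and circSOD2-sh replicate 2 (orange square) are the highest of their group for all 9 miRNAs.

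MiR-126, the endothelial member, behaved differently in size. MiR-126-3p had 1489, 1569, 1380 and 2190 counts in NC and 1138, 2089, 940 and 1130 counts in circSOD2-sh. Its normalized CPM was 228, 242, 235 and 492 in NC and 193, 369, 189 and 201 in circSOD2-sh. It was thus well detected in every library, and the rise in NC replicate 4 (2.09 times the median of the other 3) and circSOD2-sh replicate 2 (1.91 times) was small beside that of miR-143-3p. MiR-126-5p had 763, 694, 581 and 705 counts in NC, or 117, 107, 99.1 and 158 normalized CPM. In circSOD2-sh it had 435, 808, 366 and 502 counts, or 73.9, 143, 73.4 and 89.3 normalized CPM. Its ratios were 1.48 and 1.93, and its raw count in NC replicate 4 was below that of NC replicate 1, a deeper library.

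MiR-199a, a miRNA of fibroblasts and other mesenchymal cells, also varied among the other circSOD2-sh libraries. MiR-199a-5p had 45, 24, 23 and 590 counts in NC and 25, 294, 107 and 69 counts in circSOD2-sh, or 6.9, 3.69, 3.92 and 133 and 4.25, 51.9, 21.5 and 12.3 normalized CPM. MiR-199a-3p had 21, 26, 13 and 299 counts in NC and 24, 179, 91 and 36 counts in circSOD2-sh. In NC only replicate 4 was high, whereas in circSOD2-sh the order was replicate 2, 3, 4 and 1 for both arms. The ratio to the median of the other 3 libraries was 33.8 in NC replicate 4 and 4.23 in circSOD2-sh replicate 2 for miR-199a-5p. It was 20.9 and 4.94 for miR-199a-3p. MiR-214-3p, which shares the DNM3OS transcript with miR-199a, had 0, 2, 0 and 5 counts in NC and 1, 3, 2 and 1 counts in circSOD2-sh. It was near the limit of detection in both groups, so no difference between libraries is read from it. In NC replicate 4 the ratio to the other NC libraries pooled was 10.6 on 5 counts. Its exact 95% interval of 1.74 to 111 covers counting error only.

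All 9 members had their highest normalized CPM of the group in NC replicate 4 and in circSOD2-sh replicate 2. A level over 2 times that of every other library of the group was reached on the TMM scale by 8 of 9 in NC replicate 4, where miR-126-5p was the exception, and by 5 of 9 in circSOD2-sh replicate 2. In the latter, miR-126-3p, miR-126-5p, miR-199a-3p and miR-214-3p were the exceptions, and miR-143-5p passed on 3 counts. Among the 5 members that passed the filter on low counts it was 4 in NC replicate 4, beside 3.13% of all 895 miRNAs tested, and 2 in circSOD2-sh replicate 2, beside 3.69%. Both libraries were over the limit for 2 of the 5, miR-143-3p and miR-199a-5p, beside 0.670% of all tested. These contrasts chose the members, and nothing is read from the counts. MiR-126-3p was at the limit: in NC replicate 4 it was 2.04 times the highest other NC library under TMM and 2.1 with known miRNA totals, but 1.95 with RLE size factors, 1.96 with library totals and 1.97 with the deposited CPM. Under these last 3 the NC replicate 4 counts were 7 of 9 and 3 of 5. No ratio to the median of the other 3 changed by more than 1.17 times between scalings.

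**Figure D2:**
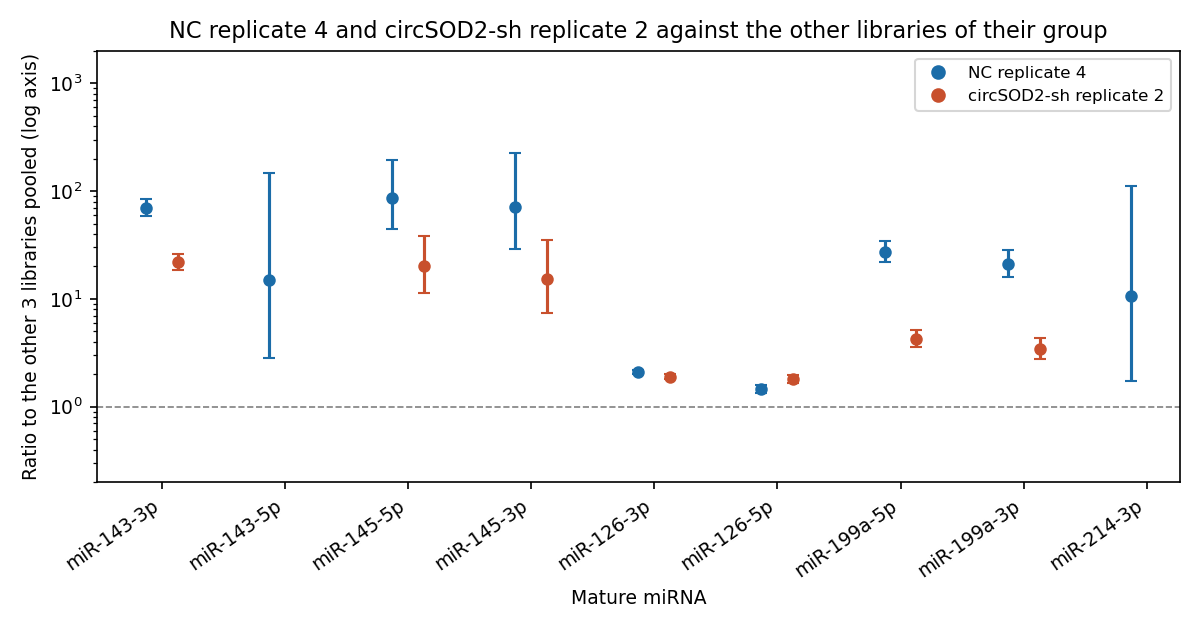
Ratio of the level in NC replicate 4 (blue) and circSOD2-sh replicate 2 (orange) to the other 3 libraries of the group pooled, on a log axis, with exact 95% intervals for counting error. No ratio is drawn for a library with 3 counts or fewer. MiR-143-3p and both miR-145 arms lie between 69.9 and 86.7 in NC replicate 4 and between 15.2 and 22.1 in circSOD2-sh replicate 2, while the miR-126 arms lie near 2 or below.

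Set directly against each other, NC replicate 4 was higher than circSOD2-sh replicate 2 for the mesenchymal members by similar ratios. The ratio was 2.45 (exact 95% interval 2.28 to 2.64) for miR-143-3p, 2.44 (1.90 to 3.16) for miR-145-5p and 2.25 (1.55 to 3.29) for miR-145-3p. It was 2.55 (2.22 to 2.95) for miR-199a-5p and 2.13 (1.76 to 2.57) for miR-199a-3p, so the intervals of these 5 all overlapped. For the endothelial pair the ratio was 1.33 (1.26 to 1.42) for miR-126-3p and 1.11 (1.0 to 1.23) for miR-126-5p, and neither interval overlapped those of the 5. These compare 2 libraries, not the conditions.

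Summed over the 7 mesenchymal members, the level was 17.9, 15.4, 14.8 and 758 normalized CPM in NC and 19.0, 312, 53.6 and 26.9 in circSOD2-sh. Summed over both miR-126 arms it was 345, 348, 334 and 651 in NC and 267, 511, 262 and 290.3 in circSOD2-sh. The mesenchymal share of all member counts was 4.23% to 4.94% in NC replicates 1 to 3 and 53.8% in NC replicate 4. It was 37.9% in circSOD2-sh replicate 2 and ran from 6.65% to 17.0% among the rest of that group. The 6 other libraries were thus dominated by miR-126 among the members. Together the 9 made up 0.267% of known miRNA counts in NC replicate 4 and 0.115% in circSOD2-sh replicate 2, against 0.0436% to 0.0708% elsewhere.

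The surplus over the median of the other 3 libraries, scaled to the depth of the library, came to 4680 counts in NC replicate 4. MiR-143-3p made up 46.5% of it, miR-126-3p 24.4%, miR-199a-5p 12.2%, miR-199a-3p 6.08%, miR-126-5p 4.91% and miR-145-5p 3.88%. In circSOD2-sh replicate 2 the surplus was 2983 counts, of which miR-143-3p made up 36.6%, miR-126-3p 33.3%, miR-126-5p 13%, miR-199a-5p 7.53%, miR-199a-3p 4.78% and miR-145-5p 3.05%. In absolute counts, therefore, miR-126-3p was the second largest part of the surplus in both libraries despite its small ratio.

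Shares within a library do not depend on its scaling, and they were compared with exact Clopper-Pearson 95% intervals. MiR-143-3p made up 92.3% (91.2 to 93.3) of the counts of miR-143-3p and miR-145-5p in NC replicate 4 and 92.3% (90.6 to 93.7) in circSOD2-sh replicate 2. In the other libraries pooled it was 93.7% (88.4 to 97.1) in NC and 91.5% (86.2 to 95.3) in circSOD2-sh. All 4 intervals overlapped, so the balance within the CARMN pair did not differ detectably where the level differed 22.0 to 70.3 times. The 5p arm made up 68.9% (63.0 to 74.4) of miR-145 counts in NC replicate 4 and 67.1% (58.8 to 74.8) in circSOD2-sh replicate 2. MiR-199a-5p made up 66.4% (63.2 to 69.5) of the counts of miR-199a-5p and miR-199a-3p in NC replicate 4 and 62.2% (57.6 to 66.5) in circSOD2-sh replicate 2, within the range of 48.0% to 68.2% in the other 6 libraries. The miR-199a-3p counts may include reads from MIR199B, so this share is not a balance between the arms of miR-199a alone.

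Other shares varied more between libraries. MiR-126-3p made up 75.6% (74.0 to 77.2) of both miR-126 arms in NC replicate 4 and 66.1% (64.1 to 68.1), 69.3% (67.4 to 71.2) and 70.4% (68.3 to 72.4) in NC replicates 1 to 3. NC replicates 1 and 3 also differed from each other by more than their counting intervals, so no shift in NC replicate 4 is read from these. In circSOD2-sh the share was 72.3%, 72.1%, 72.0% and 69.2%. MiR-199a-5p made up 92.0% (89.7 to 94.0) of the counts of miR-199a-5p and its paralogue miR-199b-5p in NC replicate 4 and 31.9% to 54.9% in the other NC libraries. It made up 86.2% (82.1 to 89.7) in circSOD2-sh replicate 2 and 53.2%, 78.1% and 68.3% in circSOD2-sh replicates 1, 3 and 4. MiR-199b-5p itself had 37, 45, 49 and 51 counts in NC and 22, 47, 30 and 32 in circSOD2-sh. Its level in NC replicate 4 was 1.65 times (1.17 to 2.30) that of the other NC libraries pooled, and in circSOD2-sh replicate 2 it was 1.63 times (1.11 to 2.36). MiR-143-3p made up 78.9% (77.3 to 80.4) of the counts of miR-143-3p and miR-199a-5p in NC replicate 4 and 79.6% (77.4 to 81.6) in circSOD2-sh replicate 2, while the other 6 libraries ranged from 35.5% to 68.4%. For this pair the intervals of the 2 libraries overlapped, and circSOD2-sh replicates 3 and 4 were both at 35.5%. In circSOD2-sh replicates 3 and 4 the miR-143-3p share beside miR-145-5p was 95.2% and 88.4%, like that elsewhere.

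**Figure D3:**
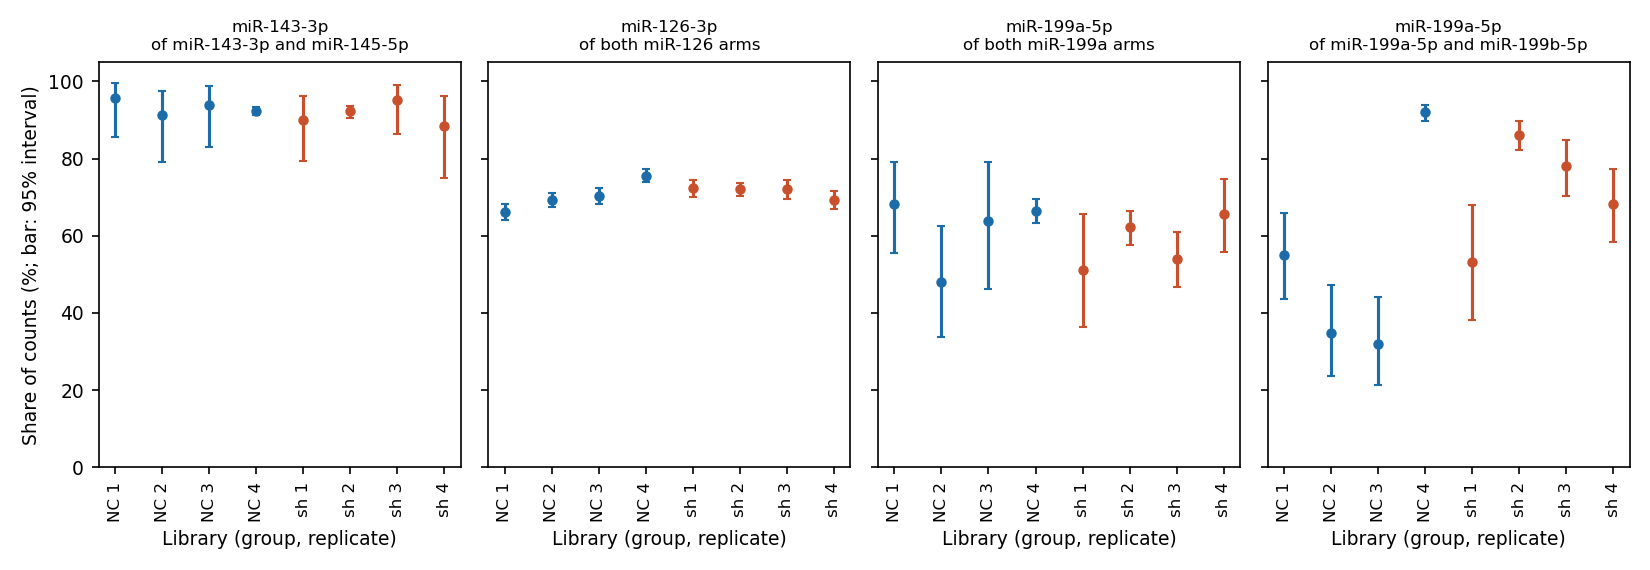
Each panel shows a share of counts in percent for every library, NC in blue and circSOD2-sh (sh) in orange, with exact 95% intervals. The miR-143-3p share beside miR-145-5p stays between 88.4% and 95.8% in every library, and the miR-199a-5p share beside miR-199b-5p runs from 31.9% to 92.0%.

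Markers of other cell types also moved in NC replicate 4 and circSOD2-sh replicate 2. The erythroid list (miR-451a, miR-144-3p, miR-144-5p and miR-486-5p) summed to 171 normalized CPM in NC replicate 4, where NC replicates 1 to 3 had 26.8 to 42.6, with 4 of 4 over 2 times every other library. In circSOD2-sh replicate 2 it summed to 59.9 against 21.6 to 31.3, with 2 of 4 over. The leukocyte list (miR-142-3p, miR-142-5p, miR-223-3p and miR-150-5p) summed to 17.1 against 1.19 to 2.0 and to 14.7 against 2.13 to 3.21, with 2 of 4 over in each. MiR-142-5p carried most of the sum, with 71 counts in NC replicate 4 (4 to 10 in the other NC libraries) and 46 in circSOD2-sh replicate 2 (9 to 15 in its group). MiR-150-5p had 36 counts in circSOD2-sh replicate 2, 0 to 2 in the rest of its group and 2 in NC replicate 4. The myeloid marker miR-223-3p was at 0 counts in both libraries and had 0 to 2 counts in the others, and miR-142-3p had 3 and 1 counts.

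The neural list (miR-124-3p, miR-9-5p, miR-9-3p, miR-128-3p and miR-129-5p) separated the 2 libraries from each other. It summed to 5238 normalized CPM in circSOD2-sh replicate 2 against 476 to 494 in its group, with 4 of 5 over, and to 524 in NC replicate 4, inside the range of 522 to 559 of the other NC libraries. The 9 kidney tubule and epithelial miRNAs, which include the miR-200 family, summed to 6667 in NC replicate 4 against 5462 to 6227, with 5 of 9 over. Over were miR-192-5p (953 against 335 to 361), miR-194-5p (92.4 against 27.6 to 30.2) and miR-204-5p. So were miR-200c-3p (32.6 against 8.44 to 12.1) and miR-141-3p (25.4 against 5.68 to 8.47). In circSOD2-sh replicate 2 the 9 summed to 5047 against 4699 to 5177, with 1 of 9 over. MiR-200b-3p made up most of the sum, and its 3985 in NC replicate 4 lay inside the 3774 to 4455 of NC replicates 1 to 3. The tubule marker miR-204-5p had 0 to 1 counts in NC replicates 1 to 3 and 4 counts in NC replicate 4. It was the 1 over in circSOD2-sh replicate 2, with 164 counts against 7 to 9 in the rest of that group. Hypoxia-induced miR-210-3p (22 against 20 to 27, and 19.8 against 13.9 to 15.3) and liver-specific miR-122-5p (5.39 against 3.75 to 5.83, and 2.3 against 1.36 to 2.49) were not over 2 times in either. No listed miRNA was at 0 in every library. The part of these lists in the values of the 9 miRNAs was not tested, and more cells of a type and more of the miRNA in each cell cannot be told apart in such bulk libraries.

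**Figure D4:**
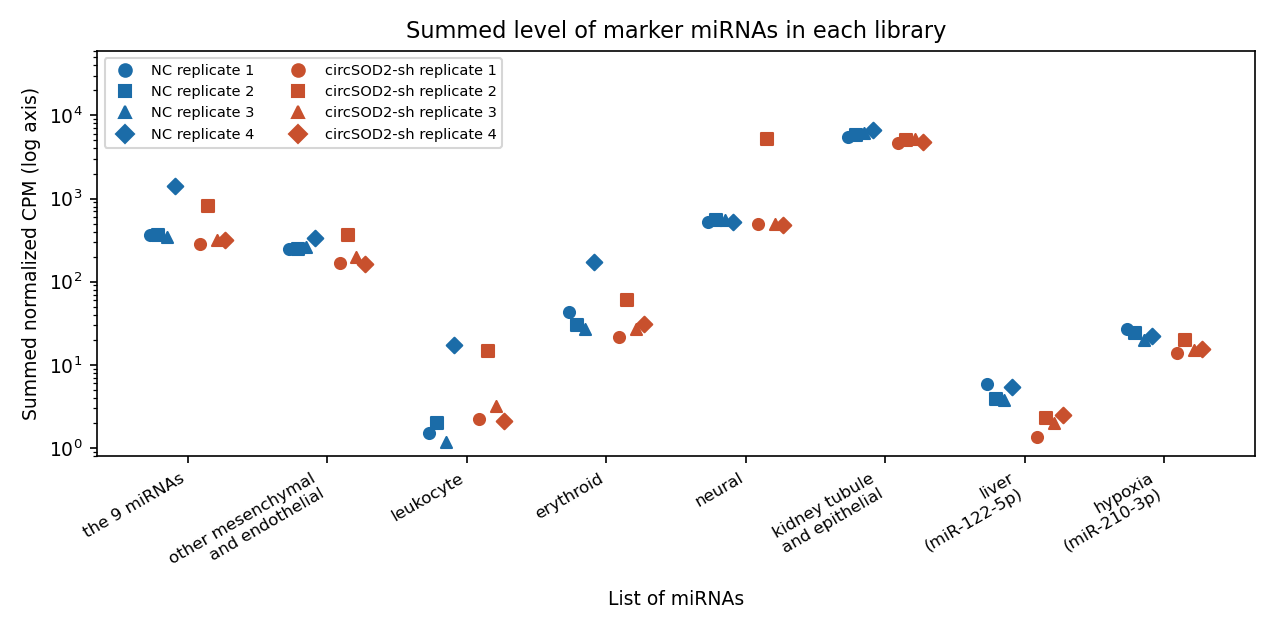
Summed normalized CPM of each marker list on a log axis, 1 point per library, NC in blue and circSOD2-sh in orange. NC replicate 4 (diamond) is above the rest of its group for the 9 miRNAs and the leukocyte, erythroid and kidney lists. CircSOD2-sh replicate 2 (orange square) is above its group for the 9 miRNAs, the leukocyte and erythroid lists, miR-210-3p and, at 5238, the neural list. Both are also above for the other mesenchymal and endothelial list, at 336 against 244 to 259.7 and 364 against 165 to 197.

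The comparison of circSOD2-sh with NC asks whether the hairpin against circSOD2 changed the miRNA. With all 8 libraries, edgeR's quasi-likelihood test with Benjamini-Hochberg adjustment over 895 miRNAs called 0 of the 5 members tested, and 0 at an unadjusted p under 0.05. DESeq2 also called 0. Of all miRNAs tested 65.7% were called, and the groups did not overlap for 60.3% of them but for 0 of the 5 members. The members were chosen for 1 high library in each group, which widens their spread and makes the groups overlap, so nothing is read from their 0 beside these shares. The group means were led by single libraries: miR-143-3p averaged 129 ± 244 normalized CPM in NC and 57.4 ± 96.4 in circSOD2-sh (SD, n = 4 each). The fit gave a log2 fold change of -1.16 (standard error 1.60) with an adjusted p = 0.537. The miR-199a arms were likewise noisy, at -0.69 (standard error 1.18, adjusted p = 0.616) for the 5p arm and -0.32 (1.09, adjusted p = 0.8) for the 3p arm. The miR-126 arms had smaller errors, at -0.33 (0.30, adjusted p = 0.362) for miR-126-3p and -0.34 (0.24, adjusted p = 0.228) for miR-126-5p. Single libraries decided these calls: without NC replicate 4 the miR-199a arms were called higher at 2.16 (adjusted p = 0.0308) and 2.21 (adjusted p = 0.0203), and without circSOD2-sh replicate 2 the miR-126 arms were called lower at -0.72 (adjusted p = 0.0261) and -0.71 (adjusted p = 0.00384). MiR-143-5p, miR-145-5p, miR-145-3p and miR-214-3p did not pass the filter on low counts and have no test.

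Without NC replicate 4 and circSOD2-sh replicate 2, the same edgeR test on the other 6 libraries called 4 of the 5 members tested, beside 69.7% of 945 miRNAs. It called 2 members higher, beside 32.7% of all tested, and 2 lower, beside 37.0%. With library totals it called 5 of 5 higher and 0 lower, where 647 of all tested were higher and 161 lower, and limma on the deposited CPM also gave 5 higher and 0 lower. The members' share was near the background share, so it is not a result about the members as a set. The libraries left out held the highest level of their group for every member. Leaving them out narrows the spread of the members, so their standard errors and p-values here may be too small. Groups did not overlap for 3 of 5, miR-126-3p, miR-126-5p and miR-199a-3p, beside 71.1%.

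Both miR-126 arms fell in circSOD2-sh under TMM scaling, whereas under library totals and the deposited CPM their fold changes were positive. MiR-126-3p ranged from 228 to 242 normalized CPM in the NC libraries and from 189 to 201 in those of circSOD2-sh, a log2 fold change of -0.38 (standard error 0.09, edgeR adjusted p = 0.0045). MiR-126-5p was at 99.1 to 117 and 73.4 to 89.3, a log2 fold change of -0.55 (0.12, adjusted p = 0.00222). With library totals the median log2 fold change of all miRNAs tested moved from -0.131 to 0.945. Those of miR-126-3p and miR-126-5p moved to 0.70 and 0.53, still below that median. The median of the known miRNAs tested was lower, at -0.261 under TMM. Relative to the median of the same fit, miR-126-3p was at -0.24 under TMM and -0.02 with a mean of at least 50 counts. With known miRNAs only it was at -0.11. For miR-126-5p these 3 values were -0.42, -0.20 and -0.28. The call on miR-126-3p was lost without circSOD2-sh replicate 3 (-0.26, adjusted p = 0.0558) and in a fit of the known miRNAs alone (-0.13, adjusted p = 0.111).

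Both miR-199a arms rose in circSOD2-sh in these 6 libraries under every scaling tried. MiR-199a-5p ranged from 3.69 to 6.9 normalized CPM in the NC libraries and from 4.25 to 21.5 in those of circSOD2-sh, a log2 fold change of 1.25 (standard error 0.47, edgeR adjusted p = 0.0339), with overlapping groups. MiR-199a-3p was at 2.22 to 4.0 and 4.08 to 18.3, a log2 fold change of 1.45 (0.49, adjusted p = 0.0219). The rise rested on few libraries: without circSOD2-sh replicate 3 the log2 fold changes were 0.76 (adjusted p = 0.0711) and 0.72 (adjusted p = 0.0644), and without NC replicate 3 they were 1.08 (adjusted p = 0.129) and 1.22 (adjusted p = 0.0993). The call on miR-199a-5p was also lost without NC replicate 2 (1.09, adjusted p = 0.104) and that on miR-199a-3p without NC replicate 1 (1.47, adjusted p = 0.0524).

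MiR-143-3p was at 7.12 ± 0.691 normalized CPM in NC and 9.26 ± 2.54 in circSOD2-sh in these libraries (SD, n = 3 each). Its log2 fold change of 0.27 (standard error 0.24, edgeR adjusted p = 0.333) did not pass the test, and it passed at 1.34 with library totals (adjusted p = 0.000176). The sign of its change thus turned from -1.16 with 8 libraries to 0.27 with 6, without a call in either.

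**Figure D5:**
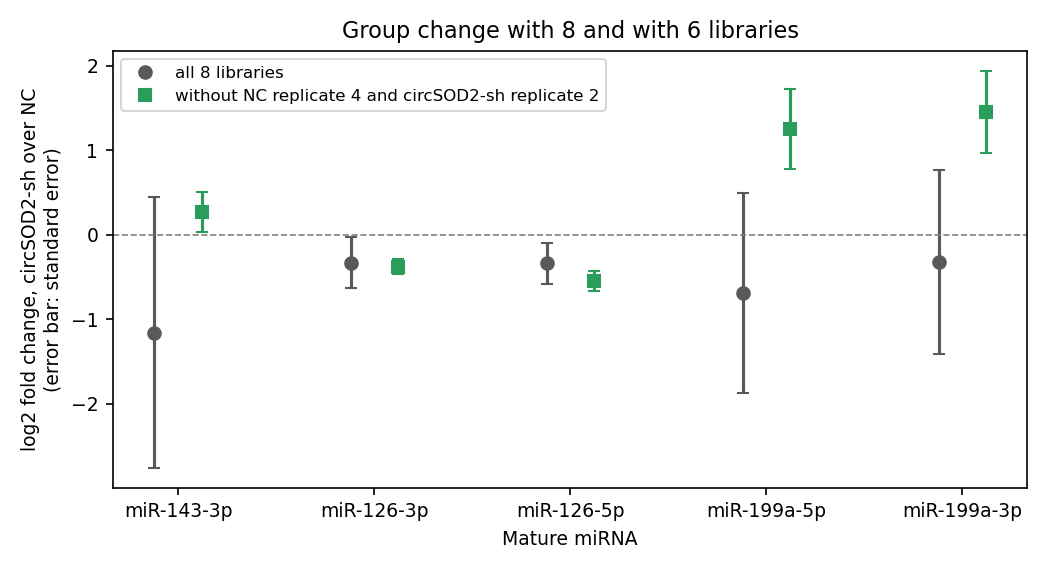
Log2 fold change of circSOD2-sh over NC with its standard error under TMM scaling for the 5 members tested, with all 8 libraries (grey circles) and without NC replicate 4 and circSOD2-sh replicate 2 (green squares). The standard error of miR-143-3p falls from 1.60 to 0.24, the miR-199a arms move from below to above 0, and the miR-126 arms stay below 0, which library totals turn to above 0.

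Of 12 other mesenchymal and endothelial miRNAs on a list, 9 passed the filter on low counts. With 8 libraries 1 was higher in circSOD2-sh and 3 were lower by edgeR, with a median log2 fold change of -0.41 beside -0.34 for the members and -0.00207 for all tested. With 6 libraries 1 was higher and 5 were lower, with a median of -0.55 beside 0.27 for the members and -0.131 for all tested. The shares called among all tested were 65.7% with 8 libraries and 69.7% with 6. With library totals the split was the other way, 5 higher and 1 lower with 8 libraries and 7 higher and 1 lower with 6. The one higher with 6 libraries was miR-199b-3p, which holds the counts of miR-199a-3p. MiR-497-5p, of the miR-15/16 seed family, had the lowest fold change on the list. It had 26.2, 28.2, 32.1 and 31.5 normalized CPM in NC and 8.33, 10.9, 8.83 and 10.1 in circSOD2-sh. With 8 libraries its log2 fold change of -1.62 (standard error 0.15) had an adjusted p = 5.46e-06, and it also fell with library totals (-0.66, adjusted p = 0.00259).

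Its cluster partner miR-195-5p had 63.5, 55.9, 61.0 and 71.7 normalized CPM in NC and 35.4, 67.4, 44.3 and 43.2 in circSOD2-sh, with log2 fold changes of -0.40 (adjusted p = 0.0884) with 8 libraries and -0.66 (adjusted p = 0.000561) with 6. MiR-424-5p and miR-503-5p, which share a cluster and are known in endothelium, fell by 0.53 (adjusted p = 0.00787) and 0.55 (adjusted p = 0.00404) on the log2 scale with 8 libraries, and with library totals both were at 0.42 (adjusted p = 0.0145 and 0.0226). The endothelial and vascular miR-218-5p was at 102 in circSOD2-sh replicate 2 against 22.6 to 26.7 in the rest of its group, and its log2 fold change went from 0.33 (adjusted p = 0.553) to -0.52 (adjusted p = 0.00557). Library totals turned the signs of miR-195-5p with 8 and with 6 libraries (0.56 and 0.42) and of miR-218-5p with 6 (0.56).

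Muscle miR-1-3p rose with 8 libraries by 0.80 on the log2 scale (adjusted p = 0.046) and was at 0.66 (adjusted p = 0.105) with 6, where library totals gave 1.74 (adjusted p = 2e-04). MiR-133a-3p was at 10.1 normalized CPM in NC replicate 4 against 1.88 to 4.16, and its log2 fold changes were -0.12 and 0.22 (adjusted p = 0.825 and 0.618), and 1.29 (adjusted p = 0.00482) with library totals and 6 libraries. MiR-199b-5p was at -0.43 (adjusted p = 0.203) and -0.55 (adjusted p = 0.0862). MiR-139-5p was at 44.5 normalized CPM in circSOD2-sh replicate 2 against 0.201 to 1.25 in its group, and miR-490-3p had 14 counts there, 0, 4 and 3 counts in the rest of its group and 0 counts in NC. On this list 4 of 12 were over 2 times every other library in NC replicate 4 and 3 of 12 in circSOD2-sh replicate 2. Among all 895 tested it was 3.13% and 3.69%, but the list also holds miRNAs below the filter. The 4 were miR-139-5p, miR-133a-3p, miR-214-5p on 1 count and miR-199b-3p, which repeats the counts of the member miR-199a-3p.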

How the data were processed

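Small RNA libraries of 786O cells, 4 NC and 4 circSOD2-sh, were analysed from 1 table of raw counts per mature miRNA and 1 table of CPM, both as deposited by the authors. The submitters' processing notes name FastQC 0.11.2, Trimmomatic 0.36, Bowtie 1.1.1 and GRCh38; the counting tool and the miRNA annotation are not given in the sources used here. The CPM values of the authors are scaled to a total that is larger than that of the listed rows, which add up to 93.3% to 93.9% of the full scale in NC and 83.7% to 85.7% in circSOD2-sh. A table of the authors' group means, fold changes, p-values and calls was not used.

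Groups and replicate numbers came from the sample titles. The members and lists were chosen with earlier results of these data known. Counts were filtered with filterByExpr at a minimum of 10, scaled by TMM and tested across all miRNAs with edgeR 4.0.16 (glmQLFit and glmQLFTest, prior count 0.125) in R 4.3.3. Benjamini-Hochberg adjusted p under 0.05 was a call. A second fit left out NC replicate 4 and circSOD2-sh replicate 2. DESeq2 1.42.0 and limma 3.58.1 on log2 CPM plus 1 or 0.1 were alternatives, as were other scalings, filters and libraries left out. The code was tested on simulated data. Ratios and shares have exact 95% intervals (scipy 1.17.1). Libraries of a group differed by a chi-square of 12.3 to 171 per degree of freedom, more than counting error alone gives. This cannot tell separate cultures from repeat preparations of the same RNA, and each library was entered as its own replicate.

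Named were the 9 members, any row with the counts of a member, the 12 other listed miRNAs (with values where at least 10 counts were reached in a library), and the 5 known miRNAs nearest to miR-143-3p and to miR-126-3p. The members and miR-199b-3p, which repeats the counts of miR-199a-3p, were left out of that search. Nearness was the distance between pairs of log2 ratios, NC replicate 4 and circSOD2-sh replicate 2 over the median of the other 3, after adding 0.5 normalized CPM, among 532 known miRNAs with at least 10 counts in either library.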

Additional observations from a re-analysis of the deposited data

Results flagged for a closer look

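A single library far from the other 3 of its group, by Dixon's test at the 95% level, was found in 12 of the 18 sets of 4 libraries examined (9 members in 2 groups). Chance gives about 1 in 20 sets, but the members were chosen by their levels in these very libraries, so the number is a description and no test. In NC the library was replicate 4 each time, at 496 normalized CPM for miR-143-3p, 1.57 for miR-143-5p, 41.4 for miR-145-5p, 18.7 for miR-145-3p, 492 for miR-126-3p, 133 for miR-199a-5p and 67.2 for miR-199a-3p. In circSOD2-sh it was replicate 2 each time, at 202 for miR-143-3p, 0.53 for miR-143-5p, 16.9 for miR-145-5p, 8.3 for miR-145-3p and 369 for miR-126-3p. The value of miR-143-5p in circSOD2-sh replicate 2 rests on 3 counts. Why these libraries stand apart was not tested.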

How the results depend on the processing

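With all 8 libraries the 0 members called stayed 0 under DESeq2, RLE size factors, the other filters, the other prior count, limma and known miRNAs only, and became 1 with library totals, 4 without both NC replicate 4 and circSOD2-sh replicate 2, and 0 to 2 with 1 library left out (2 without NC replicate 4, 2 without circSOD2-sh replicate 2). DESeq2 gave no adjusted p for miR-143-3p. Library totals turned the log2 fold changes of miR-126-3p, miR-126-5p, miR-199a-5p and miR-199a-3p to 0.638, 0.623, 0.271 and 0.646, as the median of all miRNAs moved from -0.00207 to 0.963 and the 771 calls split into 613 higher and 158 lower. Limma on the deposited CPM plus 1 gave 0.652 for miR-143-3p and 0.512, 0.443, 1.15 and 1.26 for those 4, and plus 0.1 gave 0.748, 0.514, 0.448, 1.33 and 1.53. Without both libraries miR-143-3p, miR-199a-5p and miR-199a-3p were at 0.269, 1.25 and 1.45. With 1 library left out the ranges were -3.89 to 2.98, -1.63 to 2.16 and -1.08 to 2.21, the lowest without circSOD2-sh replicate 2 and the highest without NC replicate 4. All miRNAs called went from 588 to 361 with a mean of at least 50 counts and to 246 with known miRNAs only, where fewer were tested.

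With 6 libraries the 4 members called (2 higher, 2 lower) became 5, all higher, with library totals and both limma fits, 3 under DESeq2, with no filter, with known miRNAs only and with identical counts entered once, 2 of 2 tested with a mean of at least 50 counts, and 1 to 4 with 1 library left out (2 without NC replicate 3, 1 without circSOD2-sh replicate 3). Library totals turned miR-126-3p and miR-126-5p to 0.7 and 0.528, limma to 0.553 and 0.375 (plus 1) and 0.556 and 0.379 (plus 0.1). Under library totals 647 of 808 calls were higher. MiR-199a-5p lost its call under DESeq2 (1.33, adjusted p = 0.0813), and miR-126-3p with no filter (-0.301, adjusted p = 0.0524) and with identical counts entered once (-0.229, adjusted p = 0.0596). All called went from 659 to 373 and 256 under the same 2 settings. The cause of these changes was not tested.

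With a replicate block in the fit of 8 libraries 0 members and 574 miRNAs were called, and miR-143-3p, miR-199a-5p and miR-199a-3p turned to 0.345, 0.617 and 0.924 without a call. Deviations of same-numbered libraries correlated at 0.26, -0.0994, 0.0964 and -0.174 for replicates 1 to 4. The best correlation of each NC library with a circSOD2-sh library of another number was 0.243, 0.096, 0.0569 and 0.264. Whether the numbers pair the libraries cannot be decided from such weak correlations. No block was fitted with 6 libraries, which share 2 numbers. MiR-143-5p, miR-145-5p, miR-145-3p and miR-214-3p did not pass the filter on low counts in either fit and had no test.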

Other observations

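The search for similar patterns left out the 9 members and miR-199b-3p, which repeats the counts of the member miR-199a-3p. Among the 532 known miRNAs searched, over 8 libraries, those whose pattern over NC replicate 4 and circSOD2-sh replicate 2 was nearest to that of miR-143-3p (log2 ratios 6.04 and 4.39) were miR-874-3p (4.42 and 3.78), miR-335-5p (3.39 and 5.68), miR-144-3p (3.03 and 2.69), miR-206 (5.63 and 0.77) and miR-142-5p (3.25 and 1.97). MiR-874-3p had 60 counts, or 13.5 normalized CPM, in NC replicate 4, where the other NC libraries had 0.0 to 0.308. In circSOD2-sh replicate 2 it was at 50.3, and its group was otherwise at 3.06 to 4.21. MiR-335-5p, an imprinted miRNA from an intron of MEST, was at 11.9 and 135 normalized CPM in these 2 libraries. The muscle miRNA miR-206 had 108 counts in NC replicate 4 and 2 in circSOD2-sh replicate 2, so it was high in 1 of the 2 libraries.

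Nearest to miR-126-3p (log2 ratios 1.06 and 0.93), again without the members and miR-199b-3p, were miR-152-5p (0.96 and 0.68), miR-542-3p (0.95 and 0.64), miR-152-3p (1.08 and 0.59), miR-582-5p (0.65 and 1.03) and miR-3664-3p (0.81 and 0.56). In NC replicate 4 and circSOD2-sh replicate 2, miR-152-3p had 249 and 207 counts and the others 7 to 71. MiR-126-3p had 2190 and 2089 counts there, so the ratios of the others are far less certain. Of the 895 miRNAs tested, 6 were over 2 times every other library of the group in both NC replicate 4 and circSOD2-sh replicate 2. Beside miR-143-3p and miR-199a-5p these were miR-142-5p, miR-335-5p, miR-410-3p and miR-874-3p, named after their values were seen. These patterns are descriptions of 2 libraries and have no test.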
